A study of Mus musculus and Homo sapiens with 15 samples.

Results

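The genes described here are the nuclear encoded subunits of the mitochondrial respiratory chain and of ATP synthase. They were taken by symbol from the 3 deposited gene tables: names beginning with Nduf and a letter a, b, c, s or v followed by a digit (complex I), the 4 genes Sdha, Sdhb, Sdhc and Sdhd (complex II), names beginning with Uqcr (complex III), names beginning with Cox, a digit from 4 to 8 and a letter from a to c (complex IV), and names beginning with Atp5 (complex V, ATP synthase). Pseudogenes and genes on the mitochondrial chromosome were left out. This gave 87 of 52340 genes in the table of mouse thymus tumours, 89 of 56691 in the table of mouse grafts and 93 of 61806 in the human table. In U937, 8 of the 93 are antisense, divergent or read-through transcripts named after a subunit, and sums over complexes use the other 85. After the filter on low values 82, 82 and 81 remained; those left out were gene copies, tissue isoforms and such transcripts with few or no reads, among them Cox7b2 and Cox8c in both mouse tables. Ndufa4 and Ndufa4l2, whose names place them in complex I, were counted with complex IV, where the Ndufa4 protein is found. The rule reads symbols only, so a few subunits with other names (Cox4i1, Ndufab1, Cyc1) fall outside it and are given separately.

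Complexes I and II pass electrons from NADH and succinate to ubiquinone, complex III passes them on to cytochrome c, and complex IV, cytochrome c oxidase, hands them to oxygen. Complexes I, III and IV pump protons across the inner mitochondrial membrane, and complex V uses the gradient to make ATP. Complex II is wholly nuclear encoded, while the other complexes also hold subunits translated inside the mitochondrion from its own genome, so that most of the chain needs both genomes to be built. Nuclear respiratory factor 1 (NRF1), the GA-binding protein of the ETS family (GABP) and YY1 are known to act at promoters of many of these genes. Several subunits of complex IV exist as tissue isoforms, such as Cox6a2, Cox7a1 and Cox8b in muscle, heart and brown fat and Cox6b2 in testis.

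RNA was sequenced from 15 samples. The 9 thymus samples came from mice labelled p53 R282W/R282W (W/W), a homozygous substitution in the tumour suppressor p53, that had T-lymphomas and were sampled on day 150 of life: 3 from mice given water, 3 from mice given arsenic trioxide (ATO) and labelled as tumour progression, and 3 given ATO and labelled as tumour regression. All 9 carry the substitution, so none is a wild-type control, and drug and outcome are labelled together. The 4 graft tumours came from a graft model in C57 mice with the genotype label WT, 2 treated with phosphate-buffered saline (PBS) and 2 with ATO; the labels name neither the grafted cells nor whether WT is host or graft. The last pair is the human myeloid leukaemia line U937 expressing p53-R282W, with 1 PBS and 1 ATO library. Nothing in the labels beyond the titles says that replicates came from separate animals, so p-values measure the spread between these samples only.

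The libraries held 12800367 to 17550594 gene counts in the thymus tumours, 12922147 to 15637644 in the grafts and 17872972 and 16454534 in U937. Markers of T cells were present in every mouse library, from 1462 to 12125 summed CPM (a gene's counts scaled to the total gene counts of the library) in the thymus tumours and from 4720 to 6758 in the grafts. In the thymus tumours 3 libraries stood apart. Water replicate 2 and progressing replicate 2 had normalization factors of 0.747 and 0.794, against 1.03 to 1.16 in the other 7. Regressing replicate 3 had 2390 CPM of 6 brown adipocyte markers, with 18106 counts of Ucp1, the uncoupling protein of brown fat. That sum was 288 and 36.0 CPM in regressing replicates 2 and 1, 247 CPM in progressing replicate 2, and 1.64 to 10.4 CPM in the other 5. The counts of members called in the thymus tumours are therefore given with and without these 3 libraries, a choice made after the data were seen that leaves 2 libraries a group. In bulk samples, fewer cells of a type and less RNA per cell cannot be told apart.

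Summed over all members, the subunit genes took 20539 and 18604 CPM in the 2 PBS grafts and 12221 and 11734 CPM in the 2 ATO grafts, the mean being 19572 ± 1369 against 11977 ± 345 (SD, n = 2). The groups did not overlap in any of the 5 complexes. As a description without a test, the group mean went from 5283 CPM with PBS to 3385 CPM with ATO in complex I, from 1018 to 806 in complex II, from 2268 to 1255 in complex III, from 3561 to 2192 in complex IV and from 7443 to 4340 in complex V.

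With all 9 libraries the thymus tumours showed no such separation. The sum was 9842, 18989 and 11433 CPM with water, 15820, 17048 and 13689 CPM in progressing tumours and 7061, 8347 and 18094 CPM in regressing tumours, or 13421 ± 4887, 15519 ± 1700 and 11167 ± 6033 (SD, n = 3). Water replicate 2, progressing replicate 2 and regressing replicate 3, the highest libraries of their groups, are the 3 that stood apart. Without them the sums were 9842 and 11433 CPM with water, 15820 and 13689 CPM in progressing and 7061 and 8347 CPM in regressing tumours. These sums did not overlap between groups, but the libraries to leave out were chosen after the data were seen. Of the 82 members tested there, 27 had their highest CPM in water replicate 2, 22 in progressing replicate 2 and 20 in regressing replicate 3, while 60 had their lowest in regressing replicate 1.

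**Figure D1:**
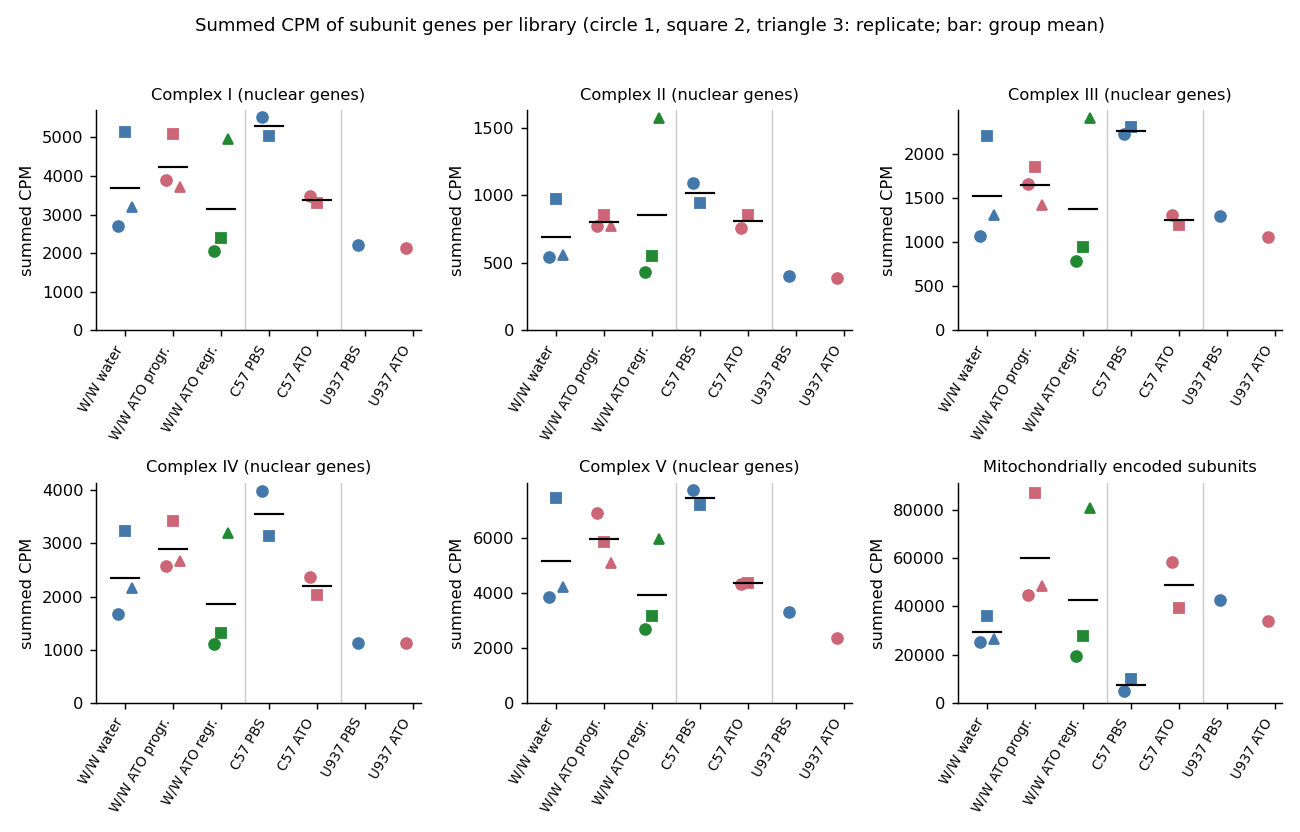
Summed CPM of the nuclear encoded subunit genes of each complex in each library, and of the mitochondrially encoded subunits, with the groups on the horizontal axis, points for libraries and bars for the group mean. The 2 PBS grafts lie above the 2 ATO grafts in every nuclear encoded complex, while the 3 groups of thymus tumours overlap.

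Levels between genes can be compared only per length, by the deposited FPKM, which divides by exon length and depth. Cox6a1, a small subunit of complex IV, had the highest mean FPKM of all members in each of the 5 mouse groups: 464 ± 253 with water, 602 ± 215 in progressing and 345 ± 272 in regressing tumours (SD, n = 3), and 983 ± 286 in PBS and 523 ± 126 in ATO grafts (SD, n = 2). Uqcr10, a small subunit of complex III, came next with 428 ± 180 FPKM with water, 403 ± 97.3 in progressing tumours, 616 ± 88.9 in PBS grafts and 285 ± 29.9 in ATO grafts. In regressing tumours Cox6b1 and Cox8a of complex IV were next, at 292 ± 207 and 292 ± 182 FPKM. In the 3 thymus groups these neighbours differed by less than their spread.

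The clearest difference lay in the grafts. Of 82 members tested, 52 were lower with ATO and none was higher (edgeR quasi-likelihood test, Benjamini-Hochberg adjusted p under 0.05), and the 52 log2 fold changes lay between −1.66 and −0.66 with adjusted p from 0.00376 to 0.049. The members' share called was 63.4%, against 13.9% of all 15468 genes tested (6.57% lower and 7.37% higher). The members' median log2 fold change was −0.80 beside 0.04 over all genes, and 79 of 82 (96.3%) had a negative value beside 47.8% of all genes. For 68 members both ATO libraries lay below both PBS libraries in CPM, which held for 20.9% of all genes, and for 2 members both lay above, which held for 41% of all genes. By unadjusted p under 0.05 the count was 68 of 82, but the share of all genes past that threshold was not computed. The count rests in part on PBS replicate 1: without it 22 of 84 members were lower, beside 1.73% of all genes, with a median of −0.67. Upper quartile scaling called 47 members and moved the share of all genes called lower to 5.24%, of 14.3% called.

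Complex V had the highest share of members called, with 14 of 17 tested members lower and a median log2 fold change of −0.93. All 3 genes of the central stalk, the shaft that turns inside the catalytic head, were lower. Atp5e (epsilon subunit) had 420 and 641 CPM in the PBS grafts and 205 and 178 CPM in the ATO grafts, and its fitted log2 difference was −1.66 with an SE of 0.24 (edgeR adjusted p = 0.00422). Atp5d (delta subunit) had 467 and 347 CPM against 174 and 143, at −1.55 (SE 0.23, edgeR adjusted p = 0.00534). Atp5c1 (gamma subunit) had 368 and 344 CPM against 203 and 237, at −0.89 (SE 0.20, edgeR adjusted p = 0.0175). In all 3 genes the ATO libraries lay below both PBS libraries.

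The catalytic head, made of the alpha and beta subunits, was lower as well. Atp5b (beta) had 1901 and 1562 CPM with PBS and 958 and 1123 CPM with ATO, a log2 fold change of −0.93 (edgeR adjusted p = 0.0212). Atp5a1 (alpha) had 1132 and 948 CPM against 661 and 798, at −0.71 (edgeR adjusted p = 0.049). In both genes the ATO libraries lay below the PBS libraries.

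The c ring, the proton-driven rotor, is made of 1 protein encoded by 3 genes that differ in their import sequence. Atp5g1 had 148 and 132 CPM with PBS and 60.1 and 55.3 CPM with ATO (log2 fold change −1.47, SE 0.21, edgeR adjusted p = 0.00388). Atp5g3 had 472 and 367 CPM against 270 and 290 (−0.78, edgeR adjusted p = 0.0337). Atp5g2 was low in all 4 libraries, at 4.53 and 5.82 CPM against 7.51 and 4.71, and its groups overlapped (0.05, edgeR adjusted p = 0.947).

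Among the small membrane subunits, Atp5mpl had 298 and 384 CPM with PBS against 143 and 117 CPM with ATO (−1.58, SE 0.22, edgeR adjusted p = 0.00376), and Atp5j2, Atp5k and Atp5md were lower too, at −1.21, −1.15 and −0.94 (edgeR adjusted p = 0.00901, 0.0209 and 0.0183). The fifth gene tested, Atp5l, had 39.2 and 35.3 CPM against 34.0 and 21.7 and did not pass (−0.61, edgeR adjusted p = 0.152). In the peripheral stalk, which holds the head still, Atp5o (OSCP) had 336 and 300 CPM against 149 in both ATO libraries (−1.29, SE 0.20, edgeR adjusted p = 0.00575). Atp5h and Atp5j were lower at −0.74 and −0.66, and Atp5pb, with 737 and 682 CPM against 525 and 534, did not pass (−0.61, edgeR adjusted p = 0.0602).

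In complex I, the NADH dehydrogenase, 24 of 37 tested members were lower, with a median log2 fold change of −0.81. Of the 7 tested core subunits, those shared with the bacterial enzyme, 5 were among them. Ndufs8, which carries iron-sulphur clusters of the arm that meets the membrane, had 110 and 93.9 CPM with PBS and 57.4 and 56.3 CPM with ATO (−1.04, SE 0.21, edgeR adjusted p = 0.0133). Ndufs7 (−1.15), Ndufv2 (−0.89), Ndufs3 (−0.85) and Ndufv1 (−0.80) were lower as well, with edgeR adjusted p from 0.0137 to 0.0308. Ndufs1, the largest subunit of the arm, had 109 and 133 CPM with PBS and 136 and 155 CPM with ATO, so that no ATO library lay below a PBS library (0.08, edgeR adjusted p = 0.827).

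Of 29 tested accessory subunits of complex I, 19 were lower. Ndufa11, a membrane subunit, had 120 and 125 CPM with PBS and 50.8 and 51.4 CPM with ATO (−1.45, SE 0.20, edgeR adjusted p = 0.00376). Ndufa2 had 173 and 234 CPM against 94.9 and 76.4 (−1.43, SE 0.22, edgeR adjusted p = 0.00599), and Ndufs6 had 175 and 199 CPM against 98.2 and 87.4 (−1.20, SE 0.20, edgeR adjusted p = 0.0078). Within each of these genes the groups were apart by more than the difference between replicates. The beta-named subunits of the membrane arm Ndufb7, Ndufb6, Ndufb5, Ndufb10 and Ndufb8 were lower by log2 fold changes of −1.30 to −1.03. In the annotation of the thymus table Ndufs6 overlaps Mrpl36 (−0.97 in the grafts) and Ndufa11 overlaps Vmac. Likewise Ndufa2 overlaps Tmco6, Ndufb5 Mrpl47, Ndufb6 Smim27 and Ndufb8 Gm20538. Some reads of all these genes may belong to the neighbour. The remaining 10 accessory genes had fitted values from −0.69 to −0.28, all negative.

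In complex II, 2 of 4 members were lower, 1 in the catalytic head and 1 in the membrane anchor, with a median of −0.56. Sdhb, the iron-sulphur subunit, had 362 and 299 CPM with PBS and 204 and 208 CPM with ATO (−0.88, SE 0.20, edgeR adjusted p = 0.02). Sdha, the flavoprotein that oxidises succinate beside it, had 212 and 215 CPM against 203 and 274, and the groups overlapped (−0.04, SE 0.21, edgeR adjusted p = 0.922). Of the membrane anchors, Sdhd was lower, with 317 and 266 CPM against 198 and 204 (−0.73, edgeR adjusted p = 0.0361). Sdhc, with 201 and 165 CPM against 149 and 171, did not pass (−0.39, edgeR adjusted p = 0.213). The differences between these 4 genes were not tested.

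In complex III, 5 of 8 tested members were lower, with a median of −0.97, and 4 of these are small subunits around the catalytic core. Uqcr11 had 211 and 230 CPM with PBS and 103 and 60.1 CPM with ATO (−1.62, SE 0.26, edgeR adjusted p = 0.00688). Uqcrq had 398 and 465 CPM against 202 and 184 (−1.35, SE 0.20, edgeR adjusted p = 0.00534), Uqcr10 323 and 397 CPM against 179 and 154 (−1.30, edgeR adjusted p = 0.00673), and Uqcrh 461 and 577 CPM against 317 and 254 (−1.05, edgeR adjusted p = 0.0143). The fifth small subunit, Uqcrb, had 142 and 103 CPM against 122 and 104, with overlapping groups (−0.31, edgeR adjusted p = 0.372). The core protein Uqcrc1 was lower (−0.89, edgeR adjusted p = 0.027). Its partner Uqcrc2 (−0.65, edgeR adjusted p = 0.0507) and the Rieske iron-sulphur protein Uqcrfs1 (−0.62, edgeR adjusted p = 0.0671) did not pass.

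In complex IV, 7 of 16 tested members were lower, with a median of −0.70. Of these, 6 are among the 10 broadly expressed subunits. Cox6a1 had 832 and 548 CPM with PBS against 429 and 304 CPM with ATO (−1.11, SE 0.27, edgeR adjusted p = 0.0227), Cox6b1 365 and 269 CPM against 180 and 165 (−1.07, edgeR adjusted p = 0.0144) and Cox5a 288 and 193 CPM against 119 and 145 (−1.07, edgeR adjusted p = 0.0179). The seventh is Cox7a2l, a factor that joins complexes III and IV into supercomplexes, with 389 and 361 CPM against 177 and 168 (−1.32, SE 0.20, edgeR adjusted p = 0.00534). No tested tissue isoform passed: Cox6a2, Cox7a1, Cox6b2 and Ndufa4l2 had fitted values from −0.32 to −0.10, each at 24.8 CPM or less in every library.

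**Figure D2:**
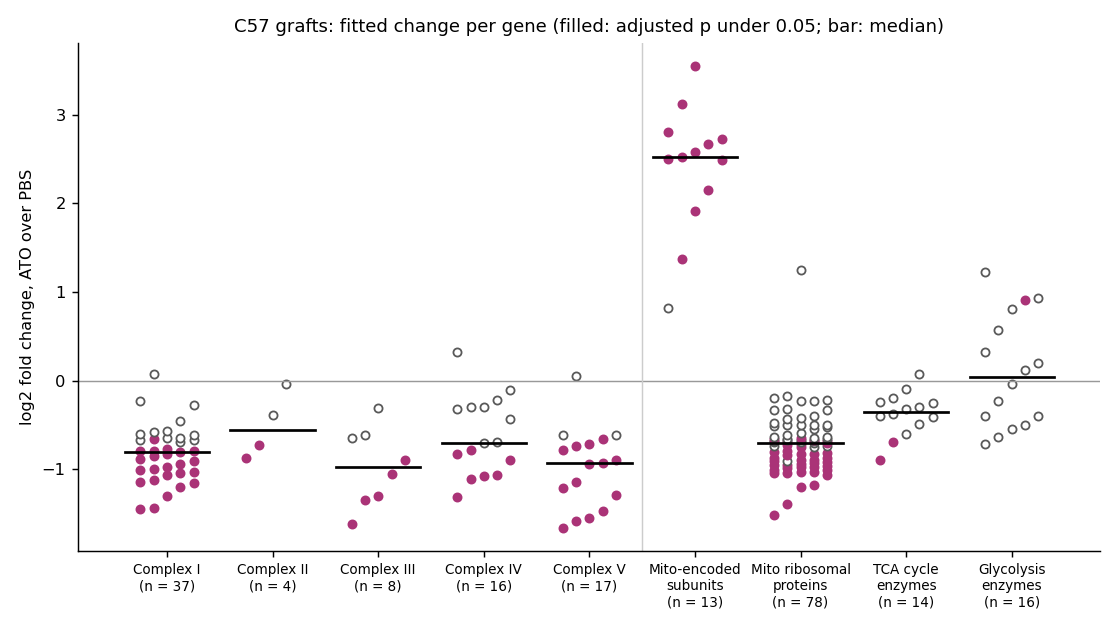
Fitted log2 fold change, ATO against PBS, of each tested subunit gene in the grafts, grouped by complex, beside 4 other gene lists; points are genes, filled where they passed, and bars are medians. Nearly all subunit genes lie below 0, while the mitochondrially encoded ones lie above it; Atp5e is lowest at −1.66, and Ndufs1 (0.08) and Sdha (−0.04) lie near the zero line.

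The mitochondrially encoded subunits of the same complexes went the other way. Their 13 genes summed to 4872 and 9828 CPM in the PBS grafts and 58122 and 39229 CPM in the ATO grafts, and 12 of 13 were higher, with a median log2 fold change of 2.52. The gene mt-Nd6, a subunit of complex I, had 98.2 and 171 CPM with PBS and 1007 and 1024 CPM with ATO (2.73, SE 0.26, edgeR adjusted p = 0.00186). The most abundant, mt-Co1, the catalytic subunit of complex IV, had 2446 and 5314 CPM against 29950 and 19788. The exception, mt-Nd3, at 2.05 to 6.35 CPM in all 4 libraries, did not pass (0.81, edgeR adjusted p = 0.262). These counts take part in the CPM total. With a total without the genes of the mitochondrial chromosome, the mean sum over members was 19721 CPM with PBS and 12613 CPM with ATO. The fit without those genes again called 52 members, beside 13.9% of all genes.

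Nuclear genes that support the chain were not uniformly lower in the grafts. Of 9 subunits and carriers with names outside the rule, 5 were lower: Cox4i1 of complex IV, with 929 and 903 CPM against 427 and 418 (−1.31, edgeR adjusted p = 0.00562), cytochrome c itself (Cycs, −0.96), the assembly protein Higd1a (−0.92), cytochrome c1 (Cyc1, −0.82) and the ATP synthase inhibitor Atpif1 (−0.74). Of 78 mitochondrial ribosomal protein genes, 40 were lower and none higher, with a median of −0.70. Of the assembly factors, 1 of 16 for complex I was lower (Ndufaf2, −0.95), 1 of 13 for complexes II, III and V (Uqcc2, −0.85), and 3 of 18 for complex IV (Cox19, Coa3 and Cox14, −1.08 to −0.85). Of 14 enzymes of the tricarboxylic acid cycle, 2 were lower (Mdh2, −0.90, and Suclg1, −0.70). Of 16 regulators of mitochondrial gene expression, 1 was higher (Gabpb2, a subunit of GABP, 0.86), while Gabpa (−0.02) and Nrf1 (−0.40) did not pass. Of 16 glycolysis enzymes, 1 was higher (Pfkp, 0.91).

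Other values moved with the treatment in the grafts. Transcript length did: in 3 classes of equal size by exonic length, 12.7% of the shortest genes (up to 2753 bp), 5.16% of the middle and 1.84% of the longest were lower with ATO. The members were lower in 39 of 63, 12 of 16 and 1 of 3 in these classes, with medians of −0.81, −0.86 and −0.61, against −0.24, −0.04 and 0.30 over all genes. Summed fibroblast markers were 429 and 202 CPM with PBS against 631 and 1766 CPM with ATO (4 of 6 higher), skeletal muscle markers 229 and 20.8 against 427 and 486 (4 of 13 tested higher), and macrophage markers 436 and 326 against 176 and 126 (3 of 7 lower). T cell markers summed to 6758 and 5913 against 5705 and 4720 CPM (1 of 11 higher, 2 lower). The 15 proliferation genes summed to 4100 and 4120 CPM with PBS against 4713 and 5735 CPM with ATO. Among these Mki67, picked as an example, was higher (1.53, edgeR adjusted p = 0.00376). The part of these values in the subunit result was not tested.

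The promoters of some members that were lower in the grafts, and of 2 genes that were not, are printed as examples of the regulatory letters they hold. These examples were picked without a stated rule and do not represent the members. RefSeq windows on GRCm38.p6, from 250 bases before to 50 bases after the start of a gene, were found for 68 of the 86 distinct symbols in the thymus table. The letters searched on both strands were GCGC, any 2 bases and GCGC again, the paired half-sites of NRF1 (the full NRF1 site has AT between the copies and is included), CCGGAAG for the ETS family to which GABP belongs, and AAGATGGC for YY1. The windows below run 5′ to 3′ on the strand of the gene, all of which are on the minus strand, and capitals mark a match, read as CTTCCGG where the ETS letters lie on the other strand. Atp5e (chr2:174464052-174464351), Atp5k (chr5:108434350-108434649), Cox6a1 (chr5:115348909-115349208) and Ndufs6 (chr13:73328433-73328732) were lower in the ATO grafts; Sdha (chr13:74350191-74350490) and Cox6b2 (chr7:4753045-4753344) were not.
Atp5e: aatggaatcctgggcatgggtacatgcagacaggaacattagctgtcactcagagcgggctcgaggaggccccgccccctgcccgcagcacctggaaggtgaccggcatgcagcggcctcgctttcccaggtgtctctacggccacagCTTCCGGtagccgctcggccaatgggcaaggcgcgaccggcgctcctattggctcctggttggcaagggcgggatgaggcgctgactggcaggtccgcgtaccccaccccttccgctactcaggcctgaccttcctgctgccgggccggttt
Atp5k: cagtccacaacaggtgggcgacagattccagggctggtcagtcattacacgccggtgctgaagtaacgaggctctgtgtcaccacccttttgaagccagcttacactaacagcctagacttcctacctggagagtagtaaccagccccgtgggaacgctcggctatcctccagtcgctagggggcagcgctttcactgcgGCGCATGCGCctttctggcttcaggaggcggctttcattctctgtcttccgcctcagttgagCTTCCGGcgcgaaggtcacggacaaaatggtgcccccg
Cox6a1: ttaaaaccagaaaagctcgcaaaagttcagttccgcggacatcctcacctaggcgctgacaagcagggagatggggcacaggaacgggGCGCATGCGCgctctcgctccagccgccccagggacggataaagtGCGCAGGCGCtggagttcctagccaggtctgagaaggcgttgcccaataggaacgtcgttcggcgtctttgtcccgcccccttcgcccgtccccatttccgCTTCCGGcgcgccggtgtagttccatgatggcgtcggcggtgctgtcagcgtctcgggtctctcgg
Ndufs6: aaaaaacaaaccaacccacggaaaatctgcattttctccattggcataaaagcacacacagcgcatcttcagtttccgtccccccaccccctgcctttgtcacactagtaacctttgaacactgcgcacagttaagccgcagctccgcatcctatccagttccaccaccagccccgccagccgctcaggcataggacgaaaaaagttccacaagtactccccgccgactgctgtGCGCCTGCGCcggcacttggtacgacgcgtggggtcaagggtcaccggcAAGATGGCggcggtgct
Sdha: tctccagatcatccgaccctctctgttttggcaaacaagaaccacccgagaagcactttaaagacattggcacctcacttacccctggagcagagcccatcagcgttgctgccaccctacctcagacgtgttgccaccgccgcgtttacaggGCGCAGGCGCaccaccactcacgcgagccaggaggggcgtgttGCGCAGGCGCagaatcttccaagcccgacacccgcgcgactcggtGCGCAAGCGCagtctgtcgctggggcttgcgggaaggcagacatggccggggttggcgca
Cox6b2: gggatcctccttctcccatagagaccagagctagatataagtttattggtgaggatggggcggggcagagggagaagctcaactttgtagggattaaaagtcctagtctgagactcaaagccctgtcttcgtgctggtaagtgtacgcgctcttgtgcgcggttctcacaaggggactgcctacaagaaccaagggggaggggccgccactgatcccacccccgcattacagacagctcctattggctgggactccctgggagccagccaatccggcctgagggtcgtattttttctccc

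At least one of the 3 motifs was found in 37 of 68 member windows (54.4%), against 16% of all 32851 windows of the same length. The NRF1 pair stood in 17 (25%, against 6.23%), the ETS letters in 16 (23.5%, against 8.86%) and the YY1 letters in 9 (13.2%, against 2.75%). The share was not particular to the members. Mitochondrial ribosomal protein genes held a motif in 43 of 69 windows (62.3%), with the NRF1 pair in 20.3%, the ETS letters in 36.2% and the YY1 letters in 17.4%. By complex, the members' windows with a motif were 18 of 31 in I, 3 of 3 in II, 3 of 5 in III, 3 of 14 (21.4%) in IV and 10 of 15 in V. Member windows had a median GC content of 57.2%, against 52.7% over all, which is not corrected for. Of 47 members lower in the grafts, 27 (57.4%) held a motif, and of 19 tested members not called, 10 (52.6%) did. All the lower genes printed above are among the 27, while Atp5d, Atp5g1 and Uqcr10, also lower, held none. The NRF1 pair was in 25.5% of the 47 lower and 26.3% of the 19 not called. The YY1 letters were in 6 of 47 and 3 of 19, and the ETS letters in 14 of 47 (29.8%) and 2 of 19 (10.5%). Sdha, which did not pass, held 3 NRF1 pairs, and Cox6b2 held none of the motifs. A match is a string of letters, not a measured site, and 55 of the 68 windows lie within 100 bases of the gene start given in the deposited table.

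In the thymus tumours few members passed any test. The comparisons below share libraries: both with water use the same 3 water libraries, and all come from 1 fit of the 9, so their values are given side by side and not as independent results.

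In regressing tumours against water, 2 of 82 members were lower and none higher, a share of 2.44% against 7.7% of all 18119 genes, with 4.57% lower and 3.13% higher. All 3 regressing libraries lay above all 3 water libraries in 4 members and below them in 7, beside 22.7% and 16.6% of all genes. Atp5g1 had 35.4, 71.4 and 29.0 CPM with water and 11.4, 14.8 and 13.5 CPM in regressing tumours, so that every regressing library lay below every water library (log2 fold change −2.11, SE 0.48, edgeR adjusted p = 0.0297). Progressing tumours had 31.7, 33.0 and 37.5 CPM. The gene lies on the minus strand at chr11:96068852-96075670 (GRCm38). Ndufa4l2, a paralogue of Ndufa4 induced by hypoxia, had 2.74, 7.81 and 7.82 CPM with water and 0.928, 0.547 and 1.65 CPM in regressing tumours (−2.80, SE 0.73, edgeR adjusted p = 0.0448). It lies at chr10:127514967-127517154 and overlaps Shmt2 on the other strand; whether counting used strand is not given in the sources used here, so reads of such partners cannot be told apart. Both calls were lost when 1 library was left out. Atp5g1 lost its call in 4 of 6 such fits (without water replicate 2 or any regressing replicate, range of all 6 −2.43 to −1.25). Ndufa4l2 lost it in 5 of 6 (all but that without water replicate 1, range of all 6 −3.24 to −2.24). These fits also called fewer of all genes. The share was 0.448%, 0.312% and 2.85% without regressing replicate 1, 2 or 3, and 3.91% and 6.31% without water replicate 2 or 3.

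The members' median in that comparison was −0.66 beside −0.11 for all genes, and 71 of 82 (86.6%) had a negative value beside 54.1% of all genes. Without water replicate 2 the members' median was 0.02 beside 0.03 for all genes, and edgeR called none, beside 3.91% of all genes. Without all 3 libraries that stood apart the median was −0.58 and 7 members were lower. Of all genes 8.77% were called there in either direction, and 4.76% were lower. Atp5e (−1.01, edgeR adjusted p = 0.03) and Cox5a (−1.05, edgeR adjusted p = 0.0312) are examples of the 7, chosen after their values were seen. Markers of other cell types moved in the same comparison. T cell markers summed to 1462 to 2118 CPM with water and 5869 to 12125 CPM in regressing tumours (6 of 11 higher), thymic epithelium markers to 163 to 1002 and 1550 to 1952 CPM (3 of 8 higher), and fibroblast markers to 236 to 1003 and 136 to 442 CPM (3 of 6 lower). B cell markers summed to 74.6 to 2355 CPM with water and 110 to 163 CPM in regressing tumours (1 of 6 lower), and brown adipocyte markers to 3.75 to 6.61 and 36.0 to 2390 CPM (2 of 6 higher). The part of these markers in the subunit values was not tested. Fitted values of the members reached 0.94 in Sdha and 0.52 in Uqcrb at the high end and −1.23 in Ndufa7 and −1.19 in Uqcr10 at the low end.

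In progressing tumours against water, 1 of 82 members passed, against 11.9% of all genes (4.77% higher and 7.13% lower), and it was higher. All 3 progressing libraries lay above water in 3 members and below it in 1, beside 12.5% and 13.9% of all genes. Cox6b2, the testis isoform of a complex IV subunit that sits between the monomers of the enzyme's dimer, had 2.21, 0.342 and 8.23 CPM with water and 61.1, 50.6 and 66.5 CPM in progressing tumours (log2 fold change 4.19, SE 0.77, edgeR adjusted p = 0.00943). Regressing tumours had 16.8, 17.3 and 13.0 CPM, also above every water library, but did not pass against water (2.06, edgeR adjusted p = 0.0929) or against progressing tumours (−2.13, edgeR adjusted p = 0.0691). With both ATO groups together against water, Cox6b2 was again the 1 member called of 82 (3.12, SE 0.70, edgeR adjusted p = 0.0195), beside 10.9% of all genes (3.57% higher and 7.3% lower). This call was lost without water replicate 1 (2.88, edgeR adjusted p = 0.0608) or regressing replicate 2 (3.10, edgeR adjusted p = 0.0505), fits that called 6.88% and 3.42% of all genes. In that comparison, with all 9 libraries, the 6 ATO libraries lay above water in 1 member and below it in 1, beside 6.46% and 5.22% of all genes. The members' median was −0.20 beside −0.11. The call in progressing tumours held in each of the 6 fits without 1 library, with values from 3.71 to 5.55. T cell markers summed to 1462 to 2118 CPM with water and 3127 to 4775 CPM in progressing tumours, B cell markers to 74.6 to 2355 and 4.39 to 31.3 CPM, and thymic epithelium markers to 163 to 1002 and 44.2 to 81.1 CPM (3 of 11 higher, 5 of 6 lower and 5 of 8 lower); their part in this result was not tested. The gene lies at chr7:4751792-4753094 and overlaps no other annotated gene. In the grafts it was at 11.9 to 24.8 CPM, with 20.3 and 19.3 CPM for PBS and 24.8 and 11.9 CPM for ATO (−0.30, edgeR adjusted p = 0.609).

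The members' median against water in progressing tumours was 0.15 beside −0.04, and 56 of 82 were positive. At the high end stood Ndufb6 (1.11) of complex I, Atp5k (0.90) of complex V and Uqcrb (0.61) of complex III, none of which passed, and at the low end Ndufa4l2 (−1.05). Without the 3 libraries that stood apart, 8 members were higher, with Cox6b2 at 3.65 and the Rieske protein Uqcrfs1 at 1.37 (edgeR adjusted p = 0.0216). Of all genes 14.1% were called there in either direction, which includes the 8.26% that were lower.

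**Figure D3:**
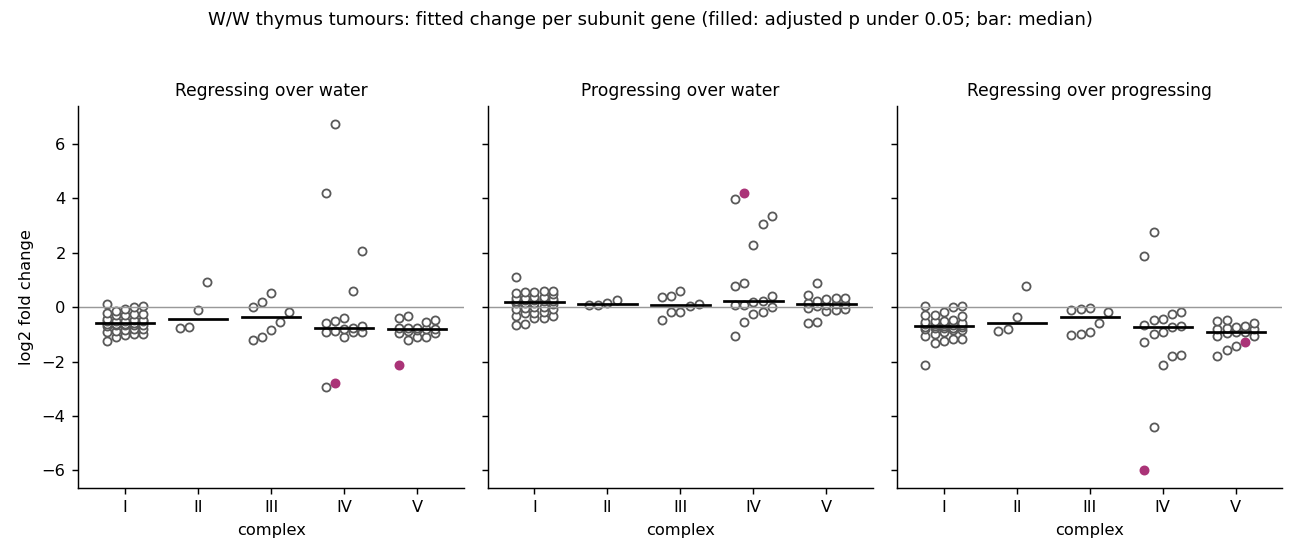
Fitted log2 fold changes of the tested subunit genes by complex in the comparisons of thymus tumours, with filled points for genes that passed and bars for medians. Against water, the points of regressing tumours lie mostly below 0 and those of progressing tumours around it, and few points in either are filled.

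Between the outcomes under ATO, regressing against progressing, 2 of 82 members were lower, against 12.6% of all genes called, 6.18% lower and 6.45% higher. In 13 members all 3 regressing libraries lay below all 3 progressing ones and in none above, beside 16.2% and 25.2% of all genes. The members' median was −0.72 beside −0.07, and 76 of 82 (92.7%) were negative beside 52.3% of all genes. Atp5j, the coupling factor 6 subunit of the peripheral stalk, had 250, 254 and 252 CPM in progressing and 112, 116 and 130 CPM in regressing tumours, groups far apart beside their spread (−1.29, SE 0.38, edgeR adjusted p = 0.0477). Water tumours spanned both, at 128, 251 and 189 CPM. Leaving out any 1 of the 6 libraries left Atp5j uncalled, at −1.37 to −1.11, in fits that called 0.922% to 10.5% of all genes. Atp5j lies at chr16:84827866-84835625 and overlaps Gabpa on the other strand.

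Cox6c2, the other call, is a near copy of Cox6c on chromosome 12 (chr12:56373593-56373823) with few reads, and the split between the copies is uncertain. It had 31, 37 and 11 counts in progressing, 2, 4 and 4 in water and 0, 0 and 1 in regressing tumours. Summed over 3 libraries, progressing exceeded regressing 75.2 times (95% counting interval 13.1 to 3009), the fitted log2 fold change being −6.00 (SE 1.13, edgeR adjusted p = 0.0155). The call was lost without regressing replicate 1 (edgeR adjusted p = 0.08) or replicate 2 (0.0721). Those fits called 0.922% and 1.62% of all genes, against 12.6% with all libraries. The abundant gene Cox6c had 426, 839 and 533 CPM in progressing and 130, 145 and 346 CPM in regressing tumours and did not pass.

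This comparison depended most on the libraries that stood apart. Without them, 34 of 82 members passed, 33 lower and Cox8b higher, beside 14.9% of all genes called and 7.47% lower, and the median was −0.95. By complex, 13 of 36 were lower in complex I, 2 of 4 in complex II, 3 of 8 in complex III, 5 of 17 in complex IV and 10 of 17 in complex V. Cox6c (−1.89, edgeR adjusted p = 0.0174), Ndufb6 (−2.20, edgeR adjusted p = 0.019) and Atp5j2 (−1.45, edgeR adjusted p = 0.0205) were among those lower. With all 9 libraries Ndufb6 had 117, 346 and 195 CPM in progressing and 34.7, 37.1 and 112 CPM in regressing tumours, at −2.11. Markers of other cell types moved with the groups. Thymic epithelium markers summed to 44.2, 81.1 and 47.1 CPM in progressing and 1952, 1663 and 1550 CPM in regressing tumours (6 of 8 higher with all 9 libraries). Fibroblast markers summed to 820, 1039 and 992 against 171, 136 and 442 CPM (3 of 6 lower), and B cell markers to 4.39, 31.3 and 15.5 against 110, 116 and 163 CPM (3 of 6 higher). T cell markers summed to 4209, 3127 and 4775 against 12125, 12075 and 5869 CPM, and none of the 11 passed with edgeR (3 had an unadjusted p under 0.05). The part of these markers in the subunit result was not tested.

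In regressing tumours against water 10 of 78 mitochondrial ribosomal protein genes were lower, with a median of −1.21 (Mrpl12, −2.29, and Mrps24, −1.88), but none of 14 tricarboxylic acid cycle enzymes, 16 complex I assembly factors or 13 mitochondrially encoded subunits passed with edgeR, and 0, 7 and 0 of these had an unadjusted p under 0.05. Among 19 regulators of mitochondrial gene expression (median 0.28, 13 positive), Ppara (5.79, edgeR adjusted p = 0.0425), a nuclear receptor of fatty acid oxidation, and Polg (1.31, edgeR adjusted p = 0.042), the mitochondrial DNA polymerase, were higher in regressing tumours than in water, and the transcription factor Myc was lower (−3.35, edgeR adjusted p = 0.0228). In progressing tumours Myc (−2.82) was the 1 gene of that list called, with a median of −0.03. Between outcomes the ATP synthase inhibitor Atpif1 was lower in regressing tumours (−1.66), as was mt-Atp8 (−3.45), a mitochondrially encoded subunit that was higher in progressing tumours than in water (3.87).

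Cox8b and Cox7a1, complex IV isoforms of muscle, heart and brown fat, were highest where the brown adipocyte markers, summed without these genes, were high. Cox8b had 0.335, 0.057 and 1.48 CPM with water, 0.197, 22.6 and 0 CPM in progressing and 4.92, 24.9 and 176 CPM in regressing tumours. Cox7a1 had 1.47, 2.73 and 1.75 CPM, then 2.56, 22.9 and 1.82, then 3.50, 12.4 and 114. Both were highest in regressing replicate 3 and next in regressing replicate 2 or progressing replicate 2, the libraries with the most brown adipocyte markers. Neither passed in any of these comparisons with all 9 libraries (regressing against water, edgeR adjusted p = 0.0827 for Cox8b and 0.0886 for Cox7a1). By FPKM, Cox8b was 7.37%, 25.5% and 49.3% of its sum with Cox8a in regressing tumours, and Cox7a1 was 7.74%, 21.4% and 55.8% of its sum with Cox7a2. Cox6a2, named for muscle and heart, was highest in progressing replicate 3, at 72.9 CPM and 11.3% of its sum with Cox6a1, where the brown adipocyte markers were 10.4 CPM and skeletal muscle markers 16.8, the lowest of the 9. Elsewhere Cox6a2 was at 0.468 to 6.43 CPM. The gene overlaps Itgad on the other strand, and reads of the 2 genes cannot be told apart here.

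Sdha had 885 CPM in regressing replicate 3 and 159 to 291 CPM in the other 8 thymus libraries. The enzymes of the tricarboxylic acid cycle summed to 5807 CPM in that library and to 1493 to 3066 CPM in the others. Its fitted log2 fold changes against water (0.94, edgeR adjusted p = 0.303) and against progressing tumours (0.78, edgeR adjusted p = 0.363) rest on that library: without it they were 0.0674 and −0.13. The part of brown adipocytes in these levels was not tested.

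**Figure D4:**
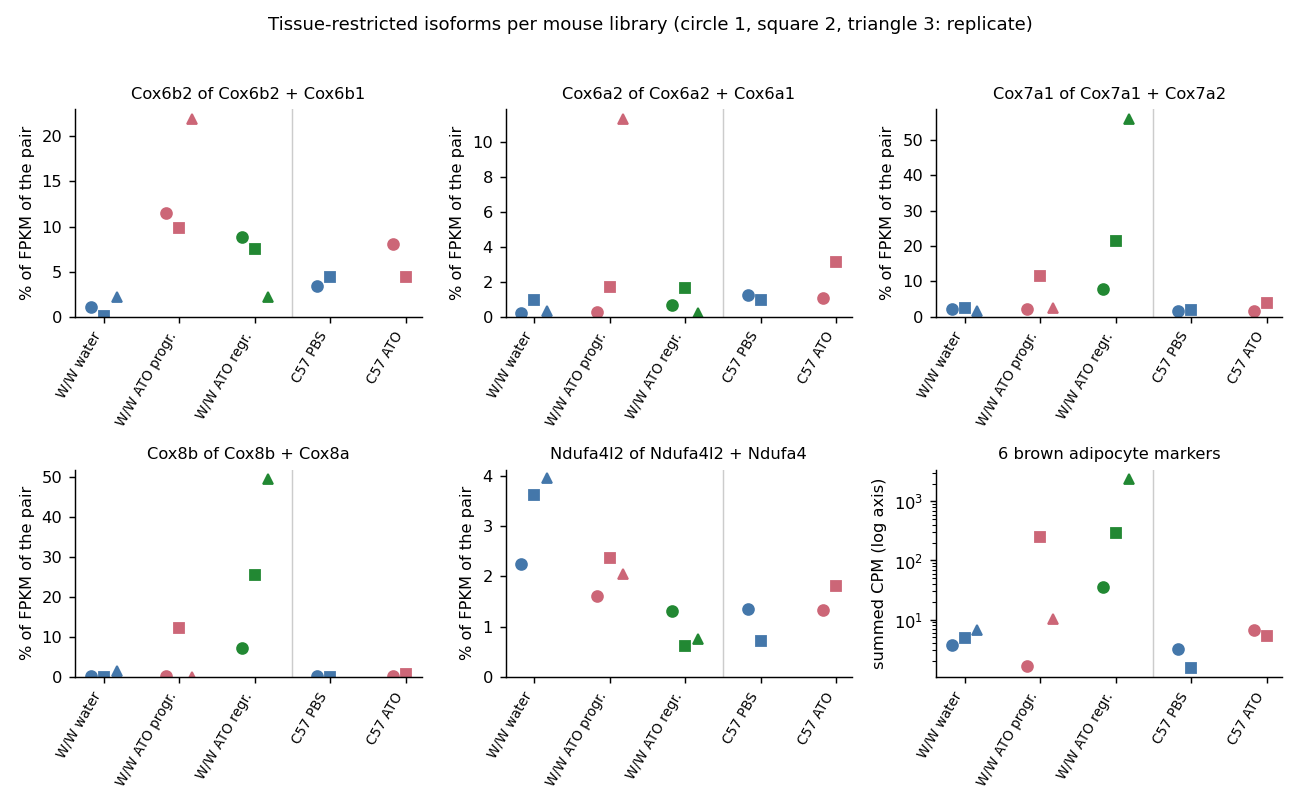
FPKM of the tissue isoforms of complex IV as a percentage of their sum with the broadly expressed partner in each mouse library, and the summed CPM of the 6 brown adipocyte markers on a log axis. Cox7a1 and Cox8b are highest in regressing replicate 3, at 55.8% and 49.3%, and Cox6b2 is higher in the 3 progressing tumours, at 9.83% to 21.9%, than in the 3 water tumours, at 0.0674% to 2.25%.

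In U937 there was 1 library per treatment, so that differences have no replicate check and no test. Of 81 members kept at a mean of 1 CPM or more, 1 was the divergent transcript NDUFA6-DT, which is not a subunit gene and was not past 1.5-fold. With ATO, 2 of the 81 were at least 1.5-fold higher and 9 at least 1.5-fold lower, or 13.6%. That compares with 46.2% of all 13722 genes kept (28.2% higher and 17.9% lower). The median log2 ratio was −0.13 beside 0.13 for all genes. NDUFA4L2, the hypoxia paralogue, had 126 counts with PBS and 387 with ATO, or 7.05 and 23.5 CPM, a ratio of 3.34 (95% counting interval 2.72 to 4.11), and its share of FPKM with NDUFA4 went from 7.63% to 17.5%. NDUFB1 had 22.7 and 51.2 CPM. The next highest ratios, NDUFC2, ATP5F1E and NDUFB5, were 0.57, 0.54 and 0.53 on the log2 scale with a pseudocount of 1 CPM, under 1.5-fold. ATP5F1D, the human name of Atp5d, had 46.9 CPM with PBS and 18.8 CPM with ATO, a ratio of 0.401 (95% counting interval 0.351 to 0.458). NDUFB10 had 66.9 and 30.4 CPM, and the c ring genes ATP5MC3 and ATP5MC1 393 and 210 CPM and 63.6 and 38.3 CPM. ATP5F1A, the alpha subunit, had 684 and 376 CPM.

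By complex, the numbers past 1.5-fold were 1 higher and 2 lower of 36 in complex I, none of 4 in complex II, 2 lower of 9 in complex III, 1 higher and 1 lower of 13 in complex IV and 4 lower of 18 in complex V, whose median was −0.32. The summed CPM of the 85 subunit genes was 8353 with PBS and 7083 with ATO. For comparison, 5 of 12 mitochondrially encoded subunits (median −0.46) and 15 of 15 proliferation genes (median −1.29) were lower by that measure, and myeloid markers summed to 919 and 268 CPM. All of these are differences between 2 libraries.

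**Figure D5:**
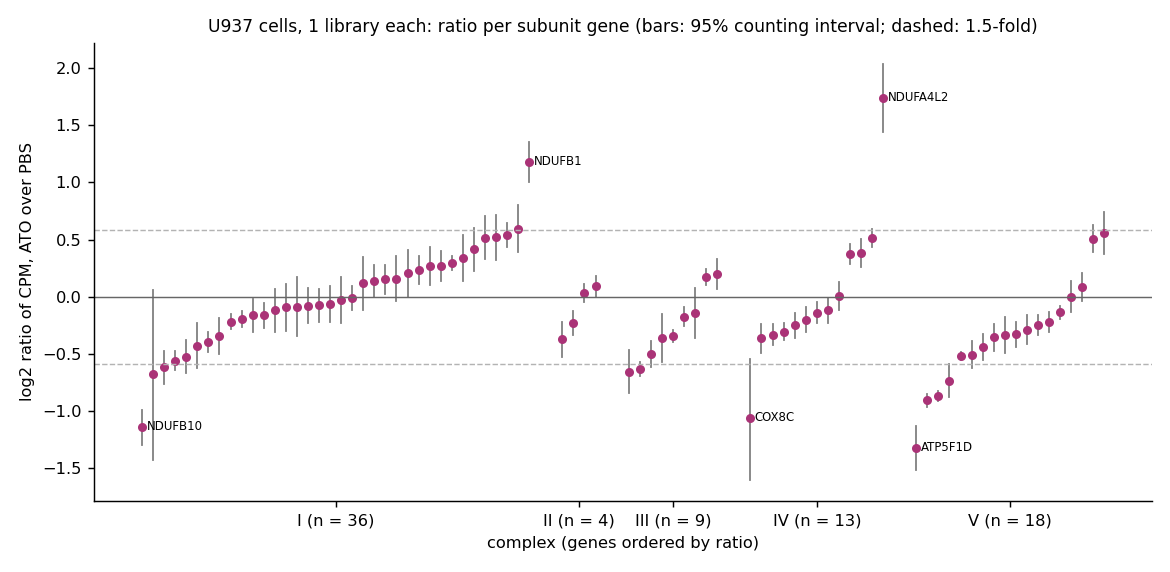
Log2 ratio of CPM, ATO against PBS, of the kept subunit genes of each complex in U937, without a pseudocount; bars are 95% counting intervals, dashed lines mark 1.5-fold, and there is 1 library per treatment. Most points lie between the dashed lines, with NDUFA4L2 (a ratio of 3.34) at the top and ATP5F1D (0.401) at the bottom.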

How the data were processed

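RNA was sequenced from 9 thymus tumours, 4 grafts and 2 U937 samples. Per the labels' protocols RNA was taken with TRIzol and libraries made with a SMARTer mRNA kit; the same protocol text also describes an adipogenic culture that fits none of these samples. Per the submitters' processing notes, FastQC 0.10.1, cutadapt 1.9.1 and HISAT2 2.0.1 were used, with builds GRCm38 and mm10; the counting program is not given in the sources used here. The authors deposited whole-number counts per gene, and FPKM values that were used only to compare levels between genes. Pseudogenes were removed by symbol. Members and gene lists were chosen with earlier results of these data known.

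Counts were tested with edgeR 4.0.16 (R 4.3.3): filterByExpr, TMM, quasi-likelihood test, adjusted p threshold 0.05 over all tested genes. The 9 thymus libraries shared 1 fit and the 4 grafts another; fitted values use TMM-adjusted library sizes, while printed CPM use the total gene counts. U937 ratios used a pseudocount of 1 CPM. DESeq2 1.42.0, limma 3.58.1 voom and the other alternatives appear at the end. The method was tested on simulated data. Of 87 members of the thymus table, 40 overlap another gene. Members named are those called, the extremes of each complex and fixed isoform groups; where a role is listed whole, the rest are named after their values were seen. The values of 1 gene are not reported here. Intervals cover counting error only.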

Additional observations from a re-analysis of the deposited data

Results flagged for a closer look

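Cox6c2 differed between the ATO groups, with a log2 fold change of −6.00 in regressing against progressing tumours, and it was higher in every progressing and lower in every regressing library than in any water library. Its counts are 37 at most in the thymus tumours and it is a near copy of Cox6c. Atp5j also differed between the ATO groups, at −1.29, and passed in no fit that left out 1 library. Those fits called 0.922% to 10.5% of all genes.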

How the results depend on the processing

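The counts of members called were low in the thymus tumours and moved with the settings. Each count is of 82 members tested, or 85 in the thymus tumours and 87 in the grafts without a filter. Percentages in brackets are the shares of all tested genes called in the same fits. For regressing against water the count was 5 without a filter (7.81%), 5 with DESeq2 (18.7%), 1 with voom (7.93%) and 1 with a replicate block (5.28%). It was 7 without the 3 libraries that stood apart (8.77%), and 0 to 2 when 1 library was left out (0.312% to 6.31%). With voom neither Atp5g1 (adjusted p = 0.0513) nor Ndufa4l2 (0.0546) passed, and Ndufa4l2 was also lost with the replicate block (0.079), when the fit held the 2 compared groups alone (0.0534) and without the 3 libraries (0.0626). For progressing against water the count was 2 with RLE factors (12.1%), 2 with upper quartile scaling (12.1%), 4 without a filter (10.4%) and 3 with DESeq2 (20.9%). It was 2 without Chr MT genes (12.1%), 8 without the 3 libraries (14.1%), and 1 in each fit without 1 library (4.78% to 13.3%). For regressing against progressing it was 4 with upper quartile scaling (2326 of 18119 genes), 13 without a filter (10.5%) and 9 with DESeq2 (23%). It was 6 with only the compared groups (19.4%), 34 without the 3 libraries (14.9%), and 0 to 2 with 1 left out (0.922% to 10.5%). For all ATO against water the count was 4 without a filter (9.51%), 5 with DESeq2 (20.2%) and 3 without the 3 libraries (12.5%). It was 0 to 2 with 1 left out (3.42% to 11%). In the grafts it was 65 without a filter, 61 with DESeq2 and 22 (without PBS replicate 1) to 58 with 1 library left out. The replicate block gave 1, 2 and 1 in the other thymus comparisons (7.75%, 8.81% and 6.79%) and 42 in the grafts (8.73%). Same-numbered thymus libraries correlated at −0.12 to 0.14, and a library correlated best with its own number in 11 of 18 comparisons with another group. Each choice was among 3 libraries, so 11 of 18 does not exclude pairs. Numbers were not taken as pairs in the main fit because the labels do not say what they mark. The replicate block gives the counts if they are.

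Upper quartile scaling moved the median of all genes for regressing against water from −0.11 to 0.03. Summed CPM with TMM sizes was 20988 (PBS grafts), 11227 (ATO grafts), 8682 and 6874 (U937 PBS and ATO); without Chr MT genes it was 12613 (ATO grafts), 8776 and 7397 (U937 PBS and ATO). Signs reversed, regressing against progressing, for Uqcrc2 at 0.0930 with upper quartile scaling, 0.0445 without a filter and 0.0184 without Chr MT genes, and for Sdha at 0.0395 in the grafts with upper quartile scaling. Without the 3 libraries, Ndufs1 (regressing against water) was −0.13, Atp5d (progressing against water) 0.18 and Sdha (regressing against progressing) −0.14. With 1 library left out, values that crossed 0 ranged as follows. Regressing against water: Ndufs1 −0.31 to 0.46, Uqcrb −0.12 to 1.29, Atp5h −0.49 to 0.0332. Progressing against water: Ndufb2 −0.97 to 0.12, Sdhd −0.22 to 0.59, Uqcrc1 −1.01 to 0.0851, Atp5d −0.87 to 0.21. Regressing against progressing: Sdha −0.13 to 1.15, Uqcrc2 −0.63 to 0.27. All ATO against water: Ndufs4 −0.0570 to 0.91, Ndufb4c −1.12 to 0.24, Sdhb −0.63 to 0.37, Uqcr10 −0.99 to 0.0394, Atp5h −0.11 to 0.38. Grafts: Ndufs1 −0.0432 to 0.17, Sdha −0.26 to 0.13, Cox6c2 −0.0759 to 0.61, Atp5g2 −0.36 to 0.35, Cox6a2 −0.94 to 0.25, Ndufa4l2 −0.70 to 0.45, Cox6b2 −0.97 to 0.14, Cox7a1 −0.82 to 0.35. The cause was not tested. Groups of 2 or 3 libraries limit the precision of all these values.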
